A study of Homo sapiens with 11 samples.

Results

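MDA-MB-231 cells that had received a control siRNA were profiled at 24 h and again at 48 h after transfection, and the difference between these times is described here from 6 of the study's 11 arrays. The 24 h group held 3 arrays (replicates 1, 2 and 3) and the 48 h group held 3 (replicates 1, 3 and 4), all of which were chosen by their labels and none by a measured value. MDA-MB-231 is an established line from a triple-negative breast adenocarcinoma. All cells were grown in DMEM with 10% fetal bovine serum, glutamine and non-essential amino acids, and all received siRNA with Lipofectamine RNAiMAX, so the reagent was common to both times. The control siRNA was AllStars Neg. Control siRNA, sold as a sequence without a known target. The other 5 arrays came from cells given a single siRNA against MASTL, 2 at 24 h and 3 at 48 h. No untransfected cells and no array before 24 h were analysed here. The comparison asks how far RNA levels drift with culture time when MASTL is not silenced.

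Cells in a closed dish change their surroundings between feedings, drawing down amino acids and glucose, releasing lactate and cytokines and becoming denser. Several transcription programmes read those surroundings. ATF4 drives amino acid transporters and synthetases when amino acids run short, NRF2 drives antioxidant enzymes, HIF-1 drives glycolysis, SREBP2 drives sterol synthesis, NF-kB drives cytokines and E2F drives DNA replication genes. MDA-MB-231 cells are known for high basal NF-kB activity and for secreting CXCL8, IL6 and CXCL1.

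Each array reported 47321 probes as log2 values normalized by the authors, and 23524 probes on each array lay above a noise limit of 7.40. With 1 probe kept per gene, that of the highest mean over the 11 arrays, the filtered values came to 22972 features, of which 14348 were named genes. With 3 arrays a group the precision is low, and since the labels do not call the replicates separate cultures, a p-value here covers array-to-array spread only. Of 17 basal-line markers on the array 15 lay above the noise limit on all 6 arrays, with VIM at 13.82 to 14.15 and CD44 at 12.29 to 12.63, while the oestrogen receptor gene ESR1, the progesterone receptor gene PGR and the E-cadherin gene CDH1 stayed below it on all 6. The leukocyte marker PTPRC was below the limit as well. Of 10 luminal and 10 epithelial markers, 6 of each lay above the limit on all 6 arrays and 3 of each below it. Among those above it were XBP1 (10.47 to 11.14) and KRT19 (11.23 to 12.73). MASTL, the gene silenced on the other arrays, encodes the Greatwall kinase of mitotic entry. It read 8.74, 8.73 and 8.64 at 24 h and 8.41, 8.42 and 8.72 at 48 h, with overlapping groups (log2 difference -0.19, SE 0.082, limma adjusted p = 0.508).

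The arrays did not sort cleanly by time. Across the tested features, 24 h replicate 2 correlated with the 48 h arrays at 0.9936 to 0.9952 and with its own group at 0.9921 and 0.9934. The 48 h replicate 4 correlated with the 24 h arrays at 0.9933 to 0.9952 and with its own group at 0.9909 and 0.9932. On the first principal component, which held 52.9% of the variance of the 6 arrays, the 24 h arrays lay at -9.42, 2.31 and -15.7 and the 48 h arrays at 16.9, 9.84 and -3.95. One array of each time therefore lay between the others, and the part of these arrays in each difference is given below by the array values.

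**Figure D1:**
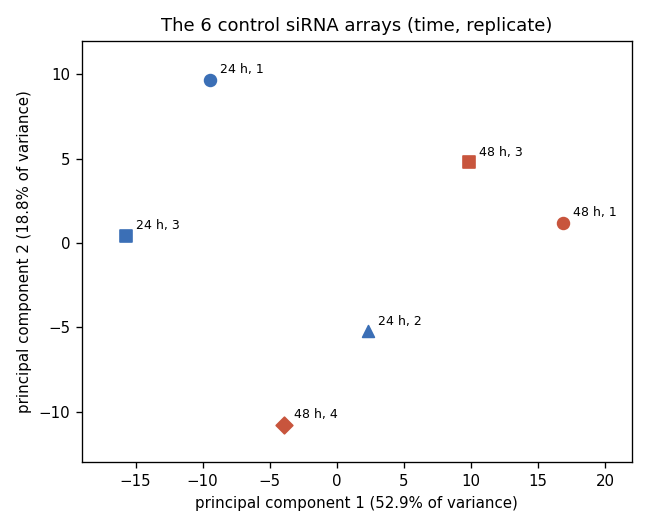
First against second principal component of the 6 control siRNA arrays, computed over the tested features, with each point labelled by time and replicate (blue, 24 h; red, 48 h). The components hold 52.9% and 18.8% of the variance, and 24 h replicate 2 (2.31) lies to the right of 48 h replicate 4 (-3.95) on the first.

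No feature passed the test of 48 h against 24 h. With limma, 0 of 22972 features (0%) had an adjusted p under 0.05, and the smallest adjusted p was 0.0811. At an unadjusted p under 0.05 there were 2230 features (9.71%), 1055 higher (4.59%) and 1175 lower (5.11%) at 48 h, where 1149 would be expected by chance. The number called was also 0 with the 6 control arrays alone. It was 5 with trended and robust moderation (CD74, KLRC3, SP140 and HSD11B1 higher, SLC3A2 lower) and 38 without 24 h replicate 2, 20 higher and 18 lower. The 38 included NQO1 (-1.09), SRXN1 (-0.56), GCLC (-0.37), FCGBP (1.44), MSMO1 (0.72) and IDI1 (0.35). Leaving out 24 h replicate 2 and 48 h replicate 4 together gave 73. Both arrays were singled out after their position near the other time was seen, so neither the 38 nor the 73 gives support to a gene.

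Most features differed little between the times. Features near the noise limit can show little difference, and of the 22972 only 14522 would remain if all 11 arrays had to pass it. The median absolute log2 difference was 0.031, against a median SD of 0.041 within the 24 h group and 0.040 within the 48 h group. The difference exceeded both SDs for 6330 features (27.6%). The 2 groups did not overlap for 3051 features (13.3%), 1380 higher (6.01%) and 1671 lower (7.27%) at 48 h. In random order, 3 against 3 arrays separate fully with probability 0.1, so lack of overlap alone does not mark a gene. The median difference over all features was -0.0021, with 48.1% of features above 0 and 51.9% below. Differences of at least 1 on the log2 scale, a doubling, were seen for 16 features that read higher and 0 that read lower. The members described below were taken from gene lists and by the size of their difference, so their values are descriptions of 6 arrays. Counts without overlap given for the lists below stand against the shares of all features, 6.01% higher and 7.27% lower.

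The genes with the smallest p-values were not those with the largest differences. SP140, a nuclear body protein of immune cells, read 0.38 higher (SE 0.040, adjusted p = 0.0811). DUS3L, a tRNA dihydrouridine synthase, had a log2 difference of -0.32 (SE 0.034, adjusted p = 0.0811). FHL2, a LIM-domain cofactor, read 10.47, 10.54 and 10.48 at 24 h and 10.27, 10.21 and 10.22 at 48 h, without overlap and with the arrays of a time close together (log2 difference -0.27, SE 0.033, adjusted p = 0.0972). By contrast the cytokine genes next described had SE values above 0.5.

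CXCL1, a chemokine for neutrophils, had the largest difference of all features. It read 8.51, 9.04 and 8.89 at 24 h and 10.93, 10.77 and 9.45 at 48 h. The groups did not overlap, but 48 h replicate 4 stood nearer to the 24 h arrays than to its own group. The log2 difference was 1.56 (SE 0.53, 95% interval 0.36 to 2.77, adjusted p = 0.421), or 2.95-fold. IL1B, the precursor of interleukin-1 beta, read 8.80, 9.51 and 9.17 against 11.41, 10.90 and 9.55, with the same array lowest at 48 h and only just above the highest 24 h array (1.46, SE 0.55, adjusted p = 0.455).

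Not all cytokine genes of this list behaved like these. Of 20 measured genes of NF-kB and inflammatory cytokines, 17 read higher at 48 h and 3 lower, with a median difference of 0.13. Without overlap 3 read higher, against 6.01% of all features. CXCL8, the interleukin-8 gene, read 10.93, 11.50 and 11.55 against 13.05, 12.84 and 11.32, so that 48 h replicate 4 lay inside the 24 h range (1.08, SE 0.60, adjusted p = 0.617). NFKBIA, the feedback inhibitor of NF-kB, differed by 0.30 with overlap (adjusted p = 0.807), and IL6 by 0.14. The median of the list followed single arrays: it was 0.035 without 24 h replicate 1, 0.036 without 48 h replicate 1 and 0.26 without 48 h replicate 4.

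CXCL1 and its close relatives CXCL2 and CXCL3 carry the same kappa-B letters before their start sites, and are shown because their levels differed unequally. The windows are RefSeq promoter sequence of GRCh38.p14, 5′ to 3′ on the gene's strand, with a match to GGGNNTTTC in capitals. They lie at chr4:73869289-73869347 (plus strand, CXCL1), chr4:74099240-74099298 (minus strand, CXCL2) and chr4:74038735-74038793 (minus strand, CXCL3), with the match 79 to 71 bases before the start for CXCL1 and CXCL3 and 78 to 70 for CXCL2.
CXCL1: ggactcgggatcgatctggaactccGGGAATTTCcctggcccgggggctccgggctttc
CXCL2: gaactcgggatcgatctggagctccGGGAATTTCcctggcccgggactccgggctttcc
CXCL3: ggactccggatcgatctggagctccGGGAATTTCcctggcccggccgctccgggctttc
On either strand, GGGNNTTTC occurred in 1292 of 27305 promoters of 300 bases (4.73%) and in 8 of the 16 promoters found for the measured members of this list. The list was made of NF-kB genes, so a high share was built in and is no result of these arrays. The same letters stood beside unlike values: CXCL2 read 8.12, 8.36 and 8.38 against 8.68, 8.51 and 8.08 (0.13), and CXCL3 stayed at the noise limit, 7.38 to 7.45 on all 6 arrays. The genes are close in sequence, so a probe may read more than its own gene.

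The other genes of large difference were of varied kinds. Of the 16 features that differed by at least 1, COXFA4L3 and the cystatin gene CST1 (1.24) were among those not picked by the naming rule and are named here after their values were seen. FCGBP, a mucus-associated protein that binds immunoglobulin, read 8.29, 9.20 and 8.44 against 10.00, 9.85 and 9.56, with 24 h replicate 2 highest of its group (1.16, SE 0.22, adjusted p = 0.204). The acute-phase gene SAA1 went with a difference of 1.07 (SE 0.28, adjusted p = 0.312) from values near the floor, 7.47 to 7.68, to 8.12 to 9.22, while other SAA1 probes gave 0.49 and 0.09. KLRC2, known as a receptor of natural killer cells, read 7.78, 8.33 and 7.75 against 9.34, 9.10 and 8.62 (1.07, adjusted p = 0.276). KLRC2 and KLRC3 are near-identical, so their probes may share RNA. S100A4, a calcium-binding protein linked to metastasis, ranged from 10.44 to 11.86 at 24 h and from 12.05 to 12.73 at 48 h (1.04, SE 0.43, adjusted p = 0.495), and its relative S100A3 differed by 0.96 (adjusted p = 0.252). LAMA5, a laminin chain of basement membranes (0.97), the carboxypeptidase CPD (0.90), the semaphorin SEMA4B (0.88, with 0.02 at another probe, above the limit on 7 arrays) and SAT1, which breaks down polyamines (0.99), did not overlap between the times either, with adjusted p between 0.315 and 0.476.

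**Figure D2:**
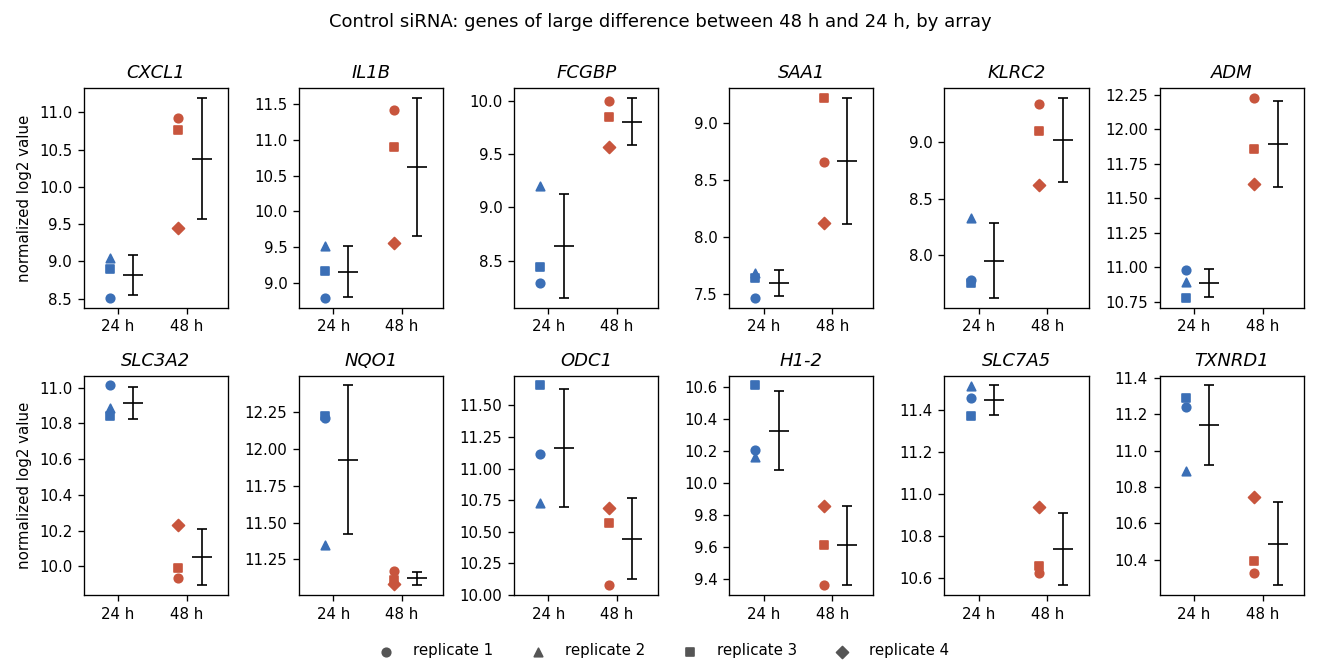
Normalized log2 values of 12 genes on the 6 control siRNA arrays, 24 h in blue and 48 h in red, with the symbol giving the replicate and the black bar the mean and SD of 3 arrays. In each panel all 48 h arrays lie on 1 side of all 24 h arrays; 48 h replicate 4 is nearest to 24 h in CXCL1 (9.45) and IL1B (9.55), and 24 h replicate 2 is nearest to 48 h in NQO1 (11.35).

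Nearly all hypoxia and glycolysis genes differed upward at 48 h. Of 26 measured, 25 differed upward and 1 downward (HK2, -0.07), 8 of them without overlap, and the median difference was 0.26 against -0.0021 over all features. By array, the list median of 48 h replicate 4 (-0.035) lay below that of 24 h replicate 2 (-0.026), so the times overlapped, and the median difference was 0.17 without 24 h replicate 3. ADM, the vasodilator peptide adrenomedullin and a known HIF-1 target, read 10.98, 10.89 and 10.78 against 12.22, 11.86 and 11.60 (1.01, SE 0.20, adjusted p = 0.218), 2.01-fold, with a gap between the groups wider than the 24 h range. BNIP3, a receptor for mitophagy, read 12.40, 12.48 and 11.90 against 13.22, 12.89 and 12.59 (0.64, adjusted p = 0.444). The glycolytic regulator PFKFB4 and phosphoglycerate kinase PGK1 differed by 0.64 and 0.62. Lactate dehydrogenase LDHA read 13.89, 13.92 and 13.68 against 14.15, 14.06 and 14.01 (0.24, SE 0.061, adjusted p = 0.302), and other LDHA probes gave 0.47 and 0.14. The glycolytic enzymes GAPDH (0.02) and ENO1 (0.09) and the kinase PDK1 (0.0047) were near 0.

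Chaperones of the endoplasmic reticulum, which fold secreted proteins, also leaned upward. All 13 measured differed upward, 2 without overlap, against 6.01% of all features, with a median of 0.20. The list median of 48 h replicate 4 (-0.049) lay below that of 24 h replicate 2 (0.011), so the times overlapped by array. CALR, the calcium-binding chaperone calreticulin, read 10.47, 10.53 and 10.29 against 10.66, 10.75 and 10.55 (0.23, SE 0.068, adjusted p = 0.37), a difference close to the range of the 24 h group. HYOU1 differed by 0.17 (SE 0.042, adjusted p = 0.291) and HSP90B1, an HSP90 of this compartment, by 0.30 with overlap (adjusted p = 0.566).

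Antigen presentation genes read higher in 11 of 13 cases, 3 without overlap, against 6.01% of all features, with a median of 0.19. By array the times overlapped, with the list median of 48 h replicate 4 at -0.057 and that of 24 h replicate 2 at -0.043. HLA-B, a class I heavy chain, read 10.27, 10.41 and 9.82 against 11.13, 11.08 and 10.42, and 48 h replicate 4 barely exceeded the highest 24 h array (0.71, SE 0.23, adjusted p = 0.406). CD74, the invariant chain of class II, was tighter: 8.39, 8.56 and 8.47 against 9.18, 9.23 and 8.91 (0.63, SE 0.11, adjusted p = 0.181). The class II chain HLA-DRA differed by 0.70 without overlap (adjusted p = 0.392; 0.41 at another probe), and B2M, the light chain of class I, by 0.40 with overlap. HLA heavy chains are close in sequence, and their probes may read more than 1 gene. Of 5 leukocyte markers on the array, PTPRC and CD3E lay below the noise limit on all 6 arrays. CD14, which myeloid cells carry and some tumour lines express, differed by 0.42 without overlap (adjusted p = 0.399), and another CD14 probe gave 0.17. CD68, the brightest of the 5 at 10.80 to 11.49, differed by 0.30 with overlap, and other CD68 probes gave 0.04 and 0.15. PTPRC, CD3E and LYZ differed by 0.018, -0.024 and -0.029. The summed level of the 5 on the linear scale, in which CD68 weighs most, ranged from 2566 to 2944 at 24 h and from 2647 to 3805 at 48 h. Its part in the antigen presentation values was not tested. The endothelial markers CDH5 and VWF were below the limit on all 6 arrays, and KDR lay near it at 7.35 to 7.45. The sum of these and PECAM1 (0.31), 4 markers, ranged from 653.9 to 699.3 and from 721.2 to 738. CDH5, VWF and KDR differed by only 0.01 to 0.02, so the sum differed mainly through PECAM1 and is not a level of endothelial markers in general.

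The 31 measured interferon-response genes did not share a direction. The median was 0.07, with 21 higher and 10 lower, 4 and 3 of them without overlap, against 6.01% and 7.27% of all features. This median ran from 0.026 without 48 h replicate 3 to 0.12 without 24 h replicate 2 and 0.14 without 48 h replicate 4. IFITM3, an antiviral membrane protein, read 11.74, 11.93 and 11.35 against 12.19, 12.19 and 12.08 (0.48, SE 0.16, adjusted p = 0.421). ISG15 (-0.28) and IFIT1 (-0.22), both classic early interferon targets, and the transcription factor IRF1 (-0.30, adjusted p = 0.49) pointed the other way.

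Matrix and adhesion genes leaned upward with marked exceptions. Of 26 measured genes of the extracellular matrix and its remodelling, 22 read higher and 4 lower, and the median was 0.14. Without overlap 3 read higher and 1 lower, near the 6.01% and 7.27% of all features. By array the times overlapped, with the list median of 48 h replicate 4 at 0.0034 and that of 24 h replicate 2 at 0.0041. COL5A1, a fibrillar collagen, differed by 0.44 (adjusted p = 0.495) and TIMP1, an inhibitor of matrix proteases, by 0.45 with overlap (13.36, 13.70 and 12.96 against 14.12, 13.98 and 13.26). COL7A1, the anchoring-fibril collagen, read 8.72, 9.21 and 8.97 against 9.68, 9.59 and 9.70, tight at 48 h (0.69, SE 0.13, adjusted p = 0.201). Thrombospondin-1, THBS1, gave -0.74 with overlap, the collagen COL8A1 -0.36 without it (adjusted p = 0.366; -0.06 and -0.23 at other probes), and the collagenase MMP1 -0.42. Among 22 genes of integrins and focal adhesions the median was 0.06, but 0.0072 without 48 h replicate 1, 0.033 without 24 h replicate 3, 0.096 without 24 h replicate 2 and 0.16 without 48 h replicate 4. ITGAV, the alpha-V integrin chain, read 9.26, 9.14 and 8.99 against 10.25, 10.06 and 9.44, with 48 h replicate 4 again the lowest of its group (0.79, SE 0.22, adjusted p = 0.35).

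Lower levels at 48 h were seen throughout the NRF2 targets, as in some lists described below. All 10 measured differed downward, 6 without overlap. The median of -0.32 was the lowest of the 34 lists, which were chosen with earlier results of these data known. This median was -0.27 without 24 h replicate 1 and -0.41 without 24 h replicate 2. NQO1, a quinone reductase, read 12.21, 11.35 and 12.22 at 24 h and 11.17, 11.11 and 11.09 at 48 h (-0.80, SE 0.21, adjusted p = 0.302), 1.75-fold lower. Another NQO1 probe, above the noise limit on 11 arrays, gave -0.061. The 48 h arrays lay close together, and 24 h replicate 2 lay with them rather than with its group. The thioredoxin reductase TXNRD1 read 11.24, 10.89 and 11.29 against 10.32, 10.39 and 10.75 (-0.65, SE 0.18, adjusted p = 0.332). SRXN1, which repairs peroxiredoxins, read 9.31, 8.84 and 9.44 against 8.80, 8.84 and 8.79, its 24 h replicate 2 touching the 48 h level (-0.39, adjusted p = 0.397). GCLC, the catalytic subunit of glutathione synthesis, differed by -0.30 (SE 0.054, adjusted p = 0.185), while the ferritin light chain FTL gave -0.01.

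ATF4 and amino acid stress genes leaned downward with some exceptions. SLC3A2, the heavy chain of the large neutral amino acid transporter, read 11.01, 10.88 and 10.84 against 9.94, 9.99 and 10.23. The gap between the groups was wider than the range of either, and the log2 difference of -0.86 (SE 0.14, 95% interval -1.18 to -0.54, adjusted p = 0.181) was the largest downward among the genes named. Its other probe gave -0.80. Its partner SLC7A5, the light chain that carries leucine, read 11.46, 11.51 and 11.38 against 10.62, 10.66 and 10.94 (-0.71, SE 0.20, adjusted p = 0.342). The cystine transporter gene SLC7A11 differed less, by -0.25 without overlap (adjusted p = 0.258). Together the list gave 5 genes higher and 14 lower of 19 measured, 2 and 7 without overlap, with a median of -0.19. ATF4 RNA itself read 12.69 to 12.78 at 24 h and 12.76 to 12.88 at 48 h (0.07, adjusted p = 0.878). ATF5, a related factor, gave -0.49 (SE 0.085, adjusted p = 0.181), and PPP1R15A, the phosphatase subunit that reverses the translational block, -0.57 (adjusted p = 0.261). VLDLR, a lipoprotein receptor placed in this list, pointed up without overlap (0.45).

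ASNS makes asparagine, and its promoter holds the amino acid response element through which ATF4 is known to act. The window is shown because the gene belongs to the list and its element is well known: chr7:97872444-97872501, minus strand, RefSeq on GRCh38.p14, with a match to TGATGNAA in capitals, 68 to 61 bases before the start.
ASNS: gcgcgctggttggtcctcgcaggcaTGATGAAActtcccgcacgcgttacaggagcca
On either strand these letters occurred in 1003 of 27305 promoters (3.67%) and in 3 of the 15 promoters found for measured members of the list. The list was made of ATF4 and amino acid stress genes, so this share is no result of these arrays either. ASNS read 10.64, 10.49 and 10.52 against 10.03, 10.20 and 10.47, and 48 h replicate 4 lay just below the 24 h group (-0.32, SE 0.12, adjusted p = 0.446). Another ASNS probe gave -0.16.

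All 12 measured heat shock genes differed downward, 2 without overlap, with a median of -0.19. By array the times overlapped, with the list median of 24 h replicate 2 at -0.081 and that of 48 h replicate 3 at -0.071. The median difference was -0.12 without 24 h replicate 1 and -0.30 without 24 h replicate 2. HSPA1B, an inducible HSP70, read 11.84, 11.49 and 11.60 against 11.08, 11.21 and 11.23 (-0.47, SE 0.087, adjusted p = 0.193), and the co-chaperone DNAJB1 9.25, 9.22 and 9.03 against 8.84, 8.76 and 8.79 (-0.37, SE 0.059, adjusted p = 0.181). HSPA1A and HSPA1B are near-identical, so their values cannot be separated. All 15 ribosome biogenesis genes, which make ribosomal subunits, differed downward, 4 without overlap, with a median of -0.16 that was -0.095 without 48 h replicate 1. Here too the times overlapped by array, 48 h replicate 4 at -0.010 against 24 h replicate 2 at -0.022. NOP56, a core protein of box C/D snoRNPs, read 11.43, 11.18 and 11.42 against 10.76, 10.92 and 11.13 (-0.41, adjusted p = 0.421), the 24 h replicate 2 and 48 h replicate 4 arrays nearly meeting. The 21 measured ribosomal protein genes had a median of -0.03. ODC1, the first enzyme of polyamine synthesis, ranged widely in both groups, 10.72 to 11.66 against 10.08 to 10.69 (-0.72, SE 0.27, adjusted p = 0.461).

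**Figure D3:**
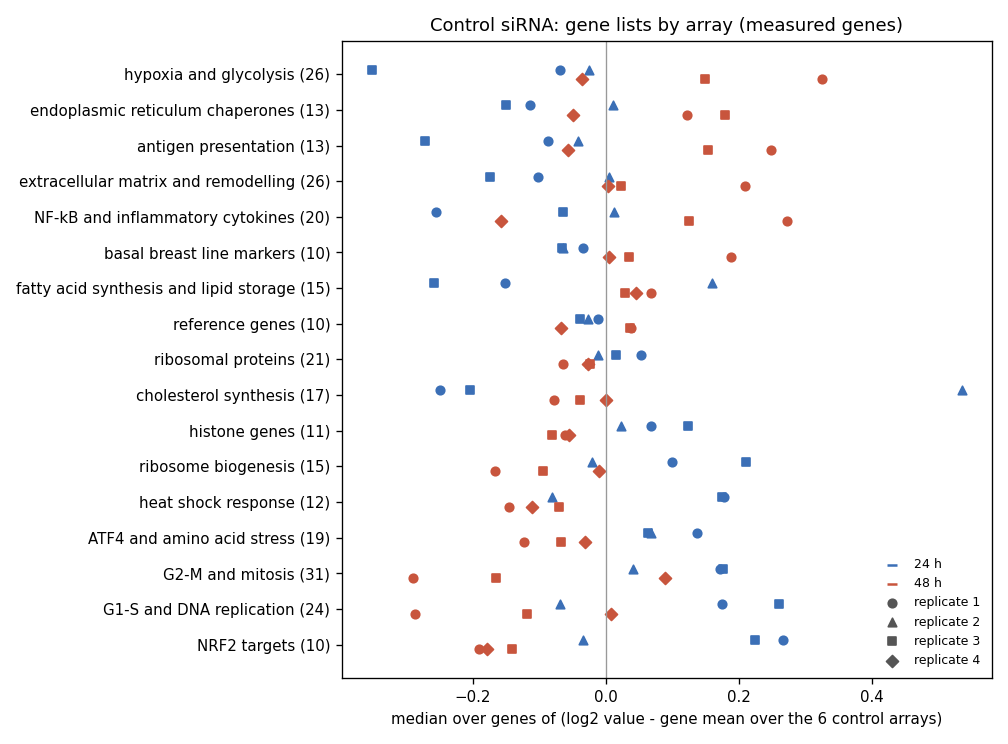
Median over the measured genes of each list (number in brackets) of the log2 value minus the gene's mean over the 6 control arrays, 24 h in blue and 48 h in red, with the symbol giving the replicate. Of the lists drawn, the arrays of the 2 times do not overlap for NRF2 targets, ATF4 targets with amino acid stress genes, histone genes, ribosomal proteins and basal breast line markers; in cholesterol synthesis 24 h replicate 2 stands at 0.54.

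Proliferation genes read lower at 48 h almost without exception. In bulk RNA, fewer cells in a phase and less RNA per cell cannot be told apart. Of 31 G2-M and mitosis genes all differed downward, 7 without overlap, with a median of -0.24. UBE2C, the ubiquitin-conjugating enzyme of the anaphase-promoting complex, read 12.23, 11.98 and 11.98 against 11.30, 11.49 and 11.87 (-0.51, SE 0.19, adjusted p = 0.457), and -0.12 at another probe. CDC20, an activator of that complex, read 12.68, 12.58 and 12.89 against 12.21, 12.22 and 12.43 (-0.43, adjusted p = 0.388). In both genes 48 h replicate 4 was the highest array of its group. The median per array was 0.17, 0.04 and 0.18 at 24 h and -0.29, -0.17 and 0.09 at 48 h, so for the list 48 h replicate 4 lay among the 24 h arrays. Without 48 h replicate 1 the median difference was -0.15.

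Of 24 measured G1-S and DNA replication genes, 23 differed downward and E2F1 gave 0.02, with 6 lower without overlap and a median of -0.25. The list median of 48 h replicate 4 (0.0071) lay above that of 24 h replicate 2 (-0.069), so the times overlapped by array. It was -0.18 for the difference without 48 h replicate 1 and -0.19 without 24 h replicate 3. CDT1, which licenses replication origins, was steady at 24 h, 9.82, 9.80 and 9.86, and read 9.10, 9.37 and 9.46 at 48 h (-0.51, SE 0.15, adjusted p = 0.366). MCM7, a helicase subunit, read 12.62, 12.50 and 12.51 against 12.28, 12.34 and 12.29 (-0.24, SE 0.057, adjusted p = 0.29), and other MCM7 probes gave -0.215 and 0.04. FEN1, the flap endonuclease, differed by -0.42 without overlap, and MCM3 by -0.28 with it. The list ran against quiescence and growth-arrest genes, of which 17 of 22 read higher (median 0.10, or 0.026 without 48 h replicate 1, with 2 higher and 3 lower without overlap), though KLF2 (-0.29) and IRS2 (-0.23) did not follow.

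Histone genes, whose replication-dependent members are transcribed in S phase, mostly read lower. H2BC12, a replication-dependent H2B gene, read 11.86, 11.74 and 12.15 against 11.11, 11.26 and 11.29 (-0.70, SE 0.11, adjusted p = 0.181), and the linker histone gene H1-2 10.21, 10.16 and 10.61 against 9.36, 9.62 and 9.86 (-0.71, SE 0.22, adjusted p = 0.377). Of 11 measured, 10 read lower and 1 higher, 5 and 1 without overlap, with a median of -0.15. The variant gene H3-3A, expressed outside S phase as well, was the 1 that read higher (0.21), and the variant H2AZ1 gave -0.05. H2AC18 (-0.64) and H2AC19 (-0.58) are near-identical copies whose probes cannot be told apart. Most replication-dependent histone RNAs lack a poly(A) tail, on which amplification kits of this kind prime, so their values need not follow their total RNA.

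Sterol genes were set by a single array. INSIG1, the sterol sensor that holds SREBP in the endoplasmic reticulum and is itself an SREBP target, read 10.82, 12.79 and 11.13 at 24 h and 11.73, 11.75 and 11.69 at 48 h. The 24 h replicate 2 lay above every other array and the remaining 24 h arrays below every 48 h array, so the mean difference of 0.15 (SE 0.42, adjusted p = 0.952) described neither. HMGCS1, an early enzyme of the mevalonate pathway, read 8.63, 11.07 and 8.68 against 8.99, 8.95 and 9.30. MSMO1, a sterol demethylation enzyme, read 9.71, 11.45 and 9.80 against 10.47, 10.58 and 10.38 (0.16, SE 0.39, adjusted p = 0.94), and other MSMO1 probes gave 0.16 and -0.03. Over 17 measured cholesterol synthesis genes, 8 read higher and 9 lower, 1 without overlap, with a median of -0.06 that became 0.17 without 24 h replicate 2, -0.18 and -0.15 without 24 h replicate 1 or 3, and -0.029 and -0.097 without 48 h replicate 1 or 4. Without 24 h replicate 2 the differences were 0.72 for MSMO1 and 0.35 for IDI1, against 0.16 and 0.04 with all arrays. That array was the highest in these genes, so leaving it out moves the difference upward by construction and gives no support. What set this array apart was not tested.

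**Figure D4:**
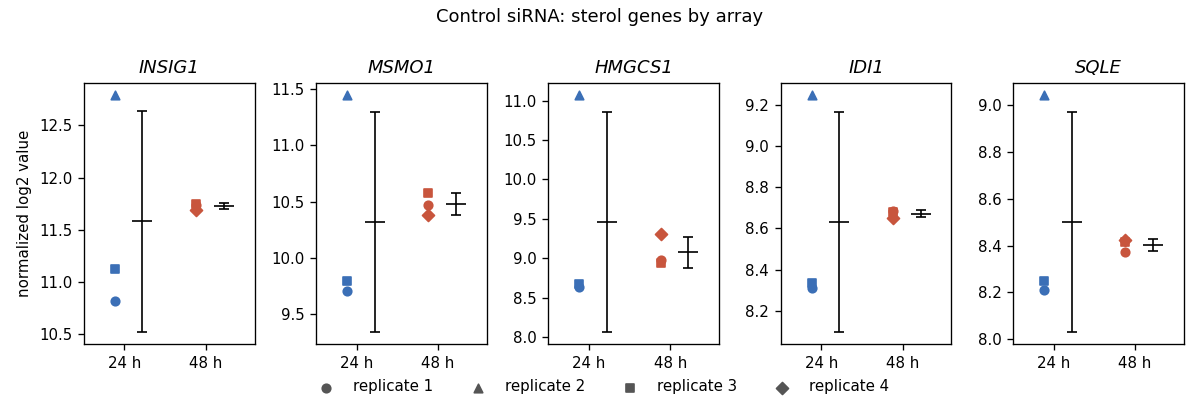
Normalized log2 values of 5 sterol genes on the 6 control siRNA arrays, 24 h in blue and 48 h in red, with the symbol giving the replicate and the black bar the mean and SD of 3 arrays. In every panel 24 h replicate 2 (triangle) is the highest array, at 12.79 for INSIG1 and 11.07 for HMGCS1, and the other 24 h arrays are the lowest.

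Cytoskeletal and YAP target genes differed singly rather than as groups. ACTG2, a smooth muscle actin, read 12.18, 11.89 and 12.19 against 11.41, 11.52 and 11.65 (-0.56, SE 0.090, adjusted p = 0.181). CCN2, a matricellular YAP target, read 11.27, 12.02 and 11.62 against 10.96, 11.07 and 11.23 (-0.55, adjusted p = 0.367), and CCN1 differed by -0.79 with overlap (adjusted p = 0.437). As groups, 22 YAP-TAZ targets (median -0.05), 20 MRTF-SRF targets (-0.02), 19 immediate early genes (-0.01) and 16 p53 targets (0.01) lay near the median of all features. The same held for 17 genes of oxidative phosphorylation (-0.02), 7 mesenchymal markers (0.01) and the 11 genes of the Greatwall and PP2A-B55 axis (0.05).

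Cells given the MASTL siRNA offered a second series of 24 h and 48 h arrays that shares no array with the control comparison. Across features the 2 time differences correlated at 0.69, as a description, and 63.2% had the same sign. The same-numbered arrays at 48 h deviated together from their group means (correlations 0.69, 0.55 and 0.77), so the 2 series share more than culture time. CXCL1 differed by 1.56 under control siRNA and 1.52 under MASTL siRNA, SLC3A2 by -0.86 and -0.83, ADM by 1.01 and 0.93 and NQO1 by -0.80 and -1.13. The list medians ran alike for NRF2 targets (-0.32 and -0.35), G1-S genes (-0.25 and -0.26) and hypoxia genes (0.26 and 0.30). For histone genes they were -0.15 and -0.01, and for cholesterol synthesis -0.06 and 0.16.

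The test of the difference between the siRNAs called 0 of 22972 features (0%; smallest adjusted p = 0.219, with 707 at an unadjusted p under 0.05 by limma), so no time effect was shown to be particular to the control cells. Trended and robust moderation called 1, SCG2. Among the named genes the smallest unadjusted p-values of that test belonged to TCN1, a vitamin B12 carrier, with 0.21 under control and 1.38 under MASTL siRNA, and ACTG2, with -0.56 and -0.02. Their adjusted p was 1.00 in each case.

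**Figure D5:**
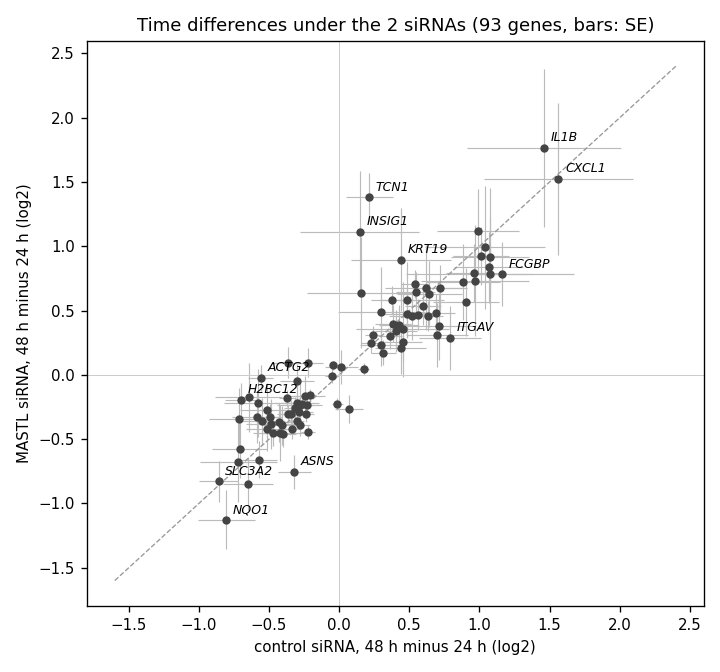
Log2 difference of 48 h against 24 h under control siRNA (x axis) and under MASTL siRNA (y axis) for 93 genes described or picked by size, with SE bars from the model of all 11 arrays and a dashed line of equal differences. CXCL1 (1.56 and 1.52) and SLC3A2 (-0.86 and -0.83) lie near the line, and TCN1 (0.21 and 1.38) and ACTG2 (-0.56 and -0.02) away from it.

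Averaging the time difference over both siRNAs gave 150 called features by limma (0.653%), 76 higher (0.331%) and 74 lower (0.322%), of which 65 and 64 were named. Among the genes described above, FCGBP (0.97, adjusted p = 0.0487), ADM (0.97, 0.0453), S100A3 (0.88, 0.0487), COL7A1 (0.59, 0.0487), CD74 (0.55, 0.0453) and LDHA (0.28, 0.0454) were called higher in that model. NQO1 (-0.97, 0.0453), SLC3A2 (-0.84, 0.0328), ASNS (-0.54, 0.0454), HSPA1B (-0.46, 0.0453), ATF5 (-0.41, 0.0453), GCLC (-0.33, 0.0301) and MCM7 (-0.27, 0.0453) were called lower. So were FHL2 (-0.25, 0.0183), IRS2 (-0.23, 0.0487) and PPP1R15A, and the genes given here are not all that were called. CXCL1 (1.54, 0.124) and IL1B (1.61, 0.122) were not. By list, the called members were 3 of 26 hypoxia genes, 1 of 13 antigen presentation genes and 1 of 14 TGF-beta and SMAD targets, all higher. Lower were 4 of 19 ATF4, 2 of 10 NRF2, 2 of 12 heat shock, 2 of 15 ribosome biogenesis, 1 of 24 G1-S, 1 of 22 quiescence and 1 of 20 MRTF-SRF genes, and the remaining lists had 0.

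These calls treat the same-numbered control and MASTL siRNA arrays of a time as independent. With such arrays as a random block (consensus correlation 0.37), 2 features were called, the kinase gene ABL2 (-0.24) and DUS3L (-0.32), each with adjusted p = 0.0356 by limma, and none of the genes named in the preceding paragraph. The count of 150 also rested on single arrays: it was 0 when replicate 3 of the 48 h control or replicate 1 of the 24 h MASTL siRNA was left out, 2 when either replicate 3 of the MASTL siRNA or replicate 1 of the control at 24 h was, 5 without 48 h control replicate 1 and 633 without 24 h control replicate 2. It was 7 and 8 without 48 h MASTL siRNA replicate 3 and 1, 12 without 24 h control replicate 3, 81 without 48 h MASTL siRNA replicate 4 and 89 without 48 h control replicate 4.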

How the data were processed

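RNA of 11 samples was amplified to biotinylated cRNA and hybridised to 1 Illumina array each, per the labels' protocols. The authors deposited normalized log2 values, made with lumi per the submitters' processing notes, with no version or role given. Sorted values of any array pair differed by at most 0.00070, so the arrays had been normalized to 1 distribution. The sources used here do not tell plain log2 from a variance-stabilized scale, and fold changes of dim genes are understated on either. A table of unnormalized signals, with 22 columns, was not used because its column names fit no sample, and the design's alternative from it was not run.

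The noise limit mirrored the values below their mode (7.35) and took the 95th percentile (7.40). Probes above it on at least 2 arrays were kept (28325). Platform annotation gave 30113 probes 1 symbol, 8 several and 17200 none. Symbols were updated through Entrez numbers for 30074. Of 84 further probes of the named genes, 11 had the opposite sign, TMEM97 (0.07 against -0.59) and MCM7 among them.

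In R 4.3.3, limma 3.58.1 (lmFit, eBayes) fitted a mean per group over the 11 arrays, with 7 residual and 1.66 prior degrees of freedom. Two-sided p-values were adjusted by Benjamini-Hochberg over all features, with calls under 0.05. An exact permutation test of 3 against 3 arrays cannot go below p = 0.1. The fit was tested on simulated data. The text names MASTL, the genes of largest difference in each direction with non-overlapping groups, called genes of the average, and members of each list by level and size. Other genes were named after their values were seen. Members and lists were chosen with earlier results of these data known. Replicate numbers 1 and 3 occur at both times, and the deviations of the control arrays that share them correlated at -0.084 and -0.20 (over both siRNAs, same-numbered arrays of different times gave -0.30 to 0.161). The labels give the numbers no meaning, so they were not taken as pairs across the times. Promoters came from RefSeq (GRCh38.p14). Figures used matplotlib 3.10.9 in Python 3.11.15. Alternatives are given in the closing section.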

Additional observations from a re-analysis of the deposited data

How the results depend on the processing

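The count called for time under control siRNA stayed at 0 with the control arrays alone, cyclic loess, quantile ties, either filter, either probe choice, array weights and the random block. It was 5 with trend and robust moderation, 73 (46 higher, 27 lower) with both arrays that stand apart left out, and 0 to 38 over the leave-one-out fits. With the replicate block, whose numbers the labels do not call pairs, it was 2552, and with that block in the control arrays only it was 0. Number 2 occurs only at 24 h and number 4 only at 48 h, so the block compares the times within numbers 1 and 3. Both arrays that stand apart bear numbers 2 or 4, so no count with this block gives support to a gene. For time under control siRNA, features at unadjusted p under 0.05 numbered 5371 with the replicate block, 4102 with it in the control arrays only, 3758 with both apart arrays left out, and 1321 to 3067 over the leave-one-out fits, lowest without 48 h control replicate 1. For time under control siRNA minus time under MASTL siRNA the count was 1 with trend and robust moderation. For time averaged over both siRNAs it was 3726 with the replicate block, 29 without a filter, 252 (156 higher, 96 lower) with trend and robust moderation, 650 with array weights, 909 with both apart arrays left out, 2 with the random block and 0 to 633 over the leave-one-out fits. The causes were not tested.

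Genes whose difference lay near 0 turned sign. INSIG1, time under control siRNA, ranged from -0.23 to 0.75 over the leave-one-out fits, MSMO1, time under control siRNA, from -0.15 to 0.72, GAPDH, time under control siRNA, from -0.067 to 0.118 and FTL, time under control siRNA, from -0.042 to 0.017, and FTL was 0.0064 with cyclic loess. These were 4 of the 94 genes recomputed under the alternatives that keep 1 probe per gene, and other genes named in the text were not recomputed. The neqc alternative on unnormalized signals was not run. Precision is limited by 3 arrays a group, and genes close to the noise limit, such as CXCL3, can show little change.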

Other observations

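Some gene groups not described above gave mixed values between 48 h and 24 h under control siRNA, none of them past the test. Of 15 measured genes of fatty acid synthesis and lipid storage, 11 read higher, 0 without overlap, with a median of 0.11 that was 0.015 and 0.035 without 24 h replicate 1 or 3 and 0.20 without 24 h replicate 2. SCD, which desaturates fatty acids, read 12.48, 13.45 and 12.24 against 13.58, 13.36 and 13.10, so 24 h replicate 2 lay with the 48 h arrays (0.62, SE 0.29, limma adjusted p = 0.552). Of 20 lysosome and autophagy genes, 13 read higher and 7 lower, 1 (the cathepsin gene CTSB, 0.26) and 3 of them without overlap, GLA (-0.25) among the lower. The shares of all features without overlap were 6.01% higher and 7.27% lower. Metallothionein genes, which encode metal-binding proteins, pointed both ways, with MT1X at 0.56, MT1F at 0.39 and MT1E at -0.47. Another MT1E probe gave only -0.07.

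Markers of epithelial state did not share a direction. CLDN7, a claudin of tight junctions, read 8.55, 8.69 and 8.16 against 9.17, 8.78 and 9.01 (0.52, SE 0.17, adjusted p = 0.397). KRT19, a keratin of simple epithelia, ranged from 11.23 to 12.63 at 24 h and from 11.93 to 12.73 at 48 h (0.44, adjusted p = 0.751), while EPCAM gave -0.20 and KRT8 -0.0055. SNAI2, which encodes the mesenchymal regulator Slug, read 8.20, 8.18 and 8.15 at 24 h, above every 48 h array, of which the lowest was 7.93 (-0.21, SE 0.044, adjusted p = 0.253). Among TGF-beta and SMAD targets the inhibitor SMAD6 gave 0.60 (adjusted p = 0.258) and the inhibitors ID3 and BAMBI -0.16 and -0.17, all 3 without overlap. Immediate early genes split as well: the ERK phosphatase DUSP6 gave 0.46 (adjusted p = 0.366) and the AP-1 subunit FOSL1 -0.31 (adjusted p = 0.302), both without overlap.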
